A study of Mus musculus with 79 samples.

Results

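Immediate early genes are the genes that a cell transcribes within minutes of a stimulus, before any new protein is made. The 10 described here were followed in the mouse lung after cigarette smoke, and were taken by name from the 31350 gene rows of an expression array run on 79 mice: Fos, Fosb, Jun, Junb, Egr1, Egr2, Atf3, Nr4a1, Ier2 and Ier3. All 10 genes had exactly 1 row, so no choice among rows was needed, and no filter on low values was applied.

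Immediate early genes respond to growth factors, calcium, stretch, oxidants and cell damage through kinases that act on transcription factors already bound at their promoters. Their mRNAs are short lived, so the level in a tissue reflects the last hours rather than the last days. Several encode transcription factors themselves, which then drive a later wave of genes.

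The mice were C57BL/6J littermates, either wildtype (WT) or carrying a transgene of Scnn1b, the β subunit of the epithelial sodium channel, expressed in airway epithelium (βENaC mice). βENaC mice have dehydrated airway mucus and a chronic airway inflammation without any exposure. Mice aged 5 to 7 weeks breathed smoke from 6 reference cigarettes (3R4F) a day, or room air in the same chamber (sham), for 1 or 5 days, and the right lung was taken 4 h after the last exposure. With both sexes this gave 16 groups of 4 to 6 mice, with 1 array for each mouse: 20 sham and 20 smoke mice at 1 day, and 20 sham and 19 smoke mice at 5 days. Whole lung RNA was measured, so in every result that follows fewer cells of a type and less RNA per cell cannot be told apart.

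Levels are log2 intensities, on which a difference of 1 is a doubling of signal. A member was called changed where limma's adjusted p was below 0.05 and the difference exceeded 1.3-fold (0.379 on the log2 scale), with p-values adjusted over all 31350 rows. Scnn1b itself separated the genotypes in all mice, at 8.42 to 9.47 in WT and 11.52 to 11.88 in βENaC mice. Cyp1a1, the cytochrome P450 that smoke induces, averaged 11.24 ± 0.26 (SD, n = 20) after 1 day of smoke and 7.13 ± 1.14 in its sham mice (n = 20). The surfactant gene Sftpc, which marks alveolar epithelium, was at 12.66 on average, and the endothelial gene Pecam1 was at 10.998. For 13 WT mice the source name gives the other genotype, and the titles, which fit Scnn1b, were used. In 3 mice genes of a neighbouring tissue stood far above the other mice. The mean of 5 skeletal muscle genes was 6.57 above its average in WT smoke female 4 at 5 days and 5.83 above it in WT sham male 4 at 1 day, and that of 3 thymus genes was 3.199 above it in βENaC smoke female 2 at 1 day.

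Nr4a1, Egr1 and Fos fell with smoke at 5 days, and Nr4a1 also at 1 day. Ier3 lay in the opposite direction at both durations, by less than 1.3-fold. At 1 day 1 of the 10 members was called, and it was lower, beside 1.07% of all rows called in either direction and 0.59% called lower. At 5 days 3 of 10 were called, all lower, beside 1.15% of all rows in either direction and 0.577% called lower. Without the fold threshold 2 members passed at 1 day (1 higher, 1 lower) and 6 at 5 days (1 higher, 5 lower), beside 9.45% and 6.53% of all rows.

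**Figure D1:**
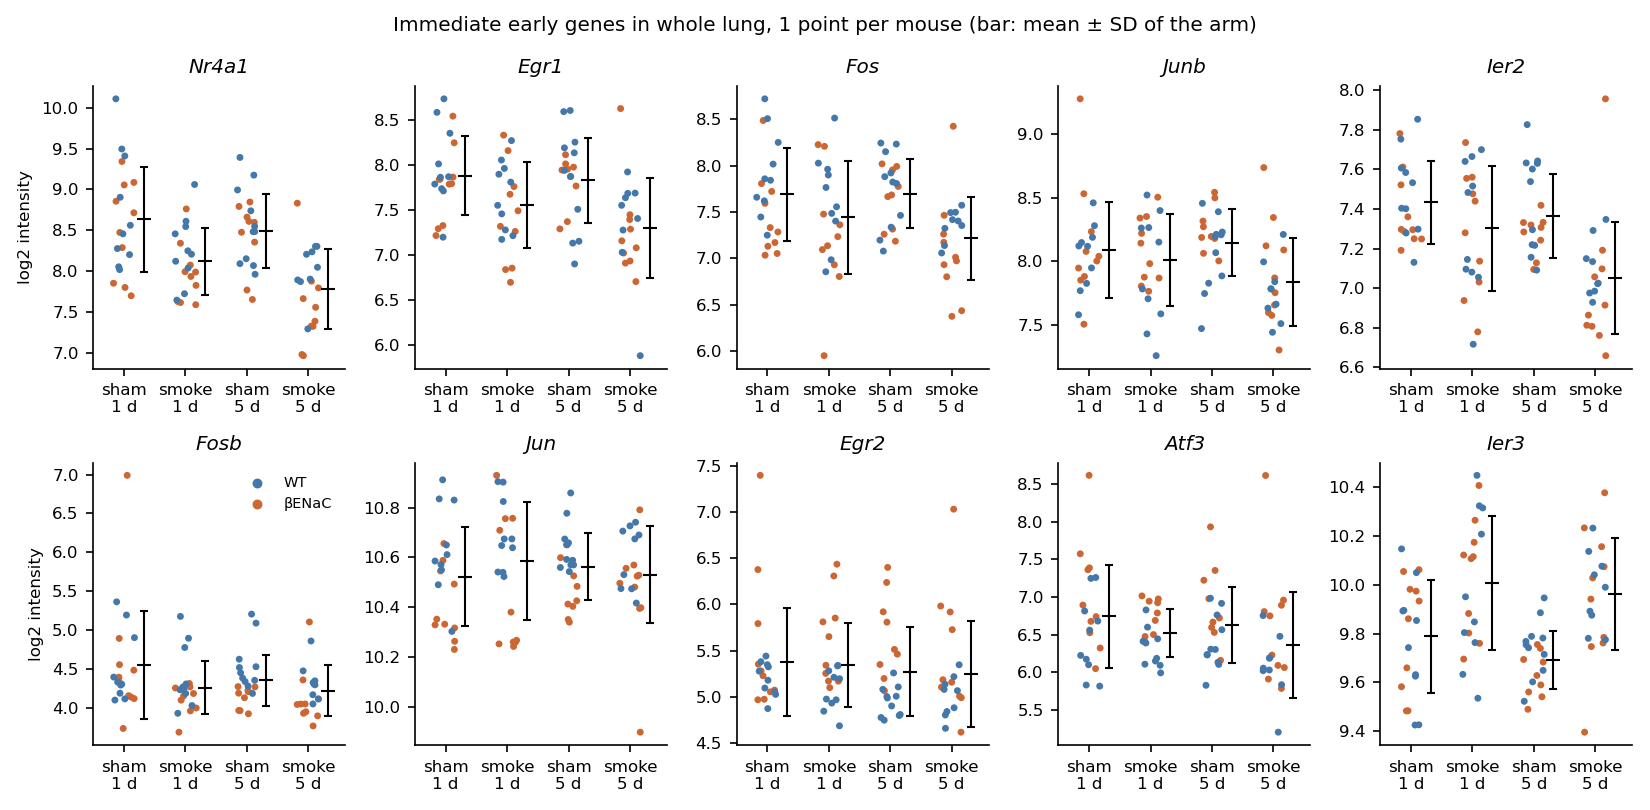
Log2 intensity of the 10 immediate early genes in each mouse (1 point per mouse, blue WT, orange βENaC) in the sham and smoke arms at 1 and 5 days, with bars at the mean ± SD of each arm and a separate vertical scale for each gene. The smoke points at 5 days sit lower for Nr4a1, Egr1, Fos, Junb and Ier2 and higher for Ier3, and all arms overlap.

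Nr4a1 (transcript NM_010444, on chromosome 15) encodes an orphan nuclear receptor, also called Nur77, that is known for restraining inflammatory gene expression in macrophages and for the survival of patrolling monocytes. At 1 day its level ran from 7.70 through a median of 8.52 to 10.11 in sham mice, and from 7.59 through 8.06 to 9.06 in smoke mice. At 5 days it ran from 7.66 through 8.52 to 9.39 in sham mice, and from 6.97 through 7.87 to 8.83 in smoke mice. The smoke mice lay low at both durations and the arms overlapped: at 5 days 18 of 19 smoke mice were below the sham median, and 7 were below every sham mouse. Nr4a1 fell by 0.70 on the log2 scale at 5 days (SE 0.14, adjusted p = 0.000666 in limma), a 1.62-fold difference. At 1 day it fell by 0.51 (SE 0.16, adjusted p = 0.0381 in limma), or 1.43-fold. The difference was negative in all 4 combinations of genotype and sex at each duration, from -1.002 to -0.31 at 5 days and from -0.96 to -0.12 at 1 day. The 5-day call held with any mouse left out (adjusted p 8.66e-05 to 0.0015). The 1-day call was lost in 16 of 40 such fits, with differences of -0.56 to -0.44 over the 40, and its highest limma adjusted p was 0.0639, without WT sham female 2. It was also lost with an ordinary linear model (adjusted p = 0.0505) and without the 13 mice of discordant source name, at -0.44 (adjusted p = 0.147 in limma). The mice whose omission ended it were βENaC sham females 1, 2, 3 and 4, βENaC sham male 3, βENaC smoke females 2 and 4, βENaC smoke males 4 and 5, WT sham female 2, WT sham males 2 and 3, WT smoke females 2 and 3, and WT smoke males 4 and 5.

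Egr1 and Egr2 encode zinc finger transcription factors that bind GC-rich sites, Egr1 being induced in lung by mechanical and oxidant stress and Egr2 being best known from myeloid cells, T cells and Schwann cells. Egr1 (NM_007913) ran from 7.20 through 7.84 to 8.73 in sham mice and from 6.70 through 7.52 to 8.33 in smoke mice at 1 day. At 5 days it ran from 6.90 through 7.94 to 8.60 in sham mice and from 5.89 through 7.29 to 8.62 in smoke mice. Most smoke mice were low at 5 days, 18 of 19 below the sham median, but 1 lay above every sham mouse and 2 below. Egr1 fell by 0.53 at 5 days (SE 0.16, adjusted p = 0.0378 in limma), or 1.44-fold, and its 1-day difference was -0.33 (SE 0.13, adjusted p = 0.126). The 5-day call was lost in 17 of 39 fits that left out 1 mouse, with differences of -0.60 to -0.44 over the 39. The value nearest 0 was that without WT smoke female 2, whose Egr1 was the lowest of all mice, at -0.44 (adjusted p = 0.0614 in limma). An ordinary linear model per gene, without limma's moderation, gave an adjusted p of 0.0508. The mice whose omission ended the call of Egr1 were βENaC sham females 1 and 4, βENaC sham males 1 and 3, βENaC smoke females 4 and 5, βENaC smoke males 1, 2, 3 and 4, WT sham females 1, 2 and 4, WT sham males 1 and 2, and WT smoke females 1 and 2. Egr2 (NM_010118) differed by -0.03 at 1 day and -0.07 at 5 days, with adjusted p in limma of 0.931 and 0.875.

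Fos, Fosb, Jun and Junb encode subunits of AP-1, the dimer of a Fos and a Jun protein that carries many of the early transcriptional effects of mitogens and stress. Fos (ENSMUST00000134311, chromosome 12) ran from 7.03 through 7.64 to 8.72 in sham mice and from 5.95 through 7.44 to 8.51 in smoke mice at 1 day. At 5 days it ran from 7.08 through 7.79 to 8.24 in sham mice and from 6.38 through 7.26 to 8.42 in smoke mice. At 5 days 18 of 19 smoke mice were below the sham median and 7 below every sham mouse, while 1 smoke mouse was the highest of both arms. Fos fell by 0.47 at 5 days (SE 0.13, adjusted p = 0.0151 in limma), or 1.39-fold, and the call held with any mouse left out (adjusted p 0.001 to 0.0269). At 1 day the Fos difference was -0.25 (SE 0.14, adjusted p = 0.323 in limma). By group it was -0.58 in WT females, -0.65 in βENaC females, 0.03 in WT males and 0.22 in βENaC males. A dependence on sex was not detected: no member's exposure by sex term passed at 1 day (smallest adjusted p = 0.33 in limma).

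Junb (NM_008416), which usually opposes Jun in cell growth, ran from 7.47 through 8.19 to 8.54 in sham mice and from 7.30 through 7.78 to 8.74 in smoke mice at 5 days. The arms overlapped, with 16 of 19 smoke mice below the sham median. The difference was -0.32 (SE 0.09, adjusted p = 0.0282 in limma), below 1.3-fold, and at 1 day it was -0.08 (adjusted p = 0.709). Fosb differed by -0.29 at 1 day and -0.11 at 5 days (adjusted p in limma of 0.289 and 0.589). Jun, the member with the smallest spread between mice, differed by 0.06 and -0.02 (adjusted p of 0.485 and 0.898). Atf3 (NM_007498), a stress-induced relative of the AP-1 proteins that mostly represses its targets, ran from 5.83 through 6.58 to 7.93 in sham and from 5.20 through 6.19 to 8.62 in smoke mice at 5 days. Its differences of -0.23 at 1 day and -0.31 at 5 days did not pass (adjusted p in limma of 0.408 and 0.359), with an SE of 0.17 at 5 days, the largest among the 10.

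Ier2 and Ier3 are small proteins outside these families. Ier2 (NM_010499), a nuclear protein tied to cell motility, ran from 7.09 through 7.31 to 7.83 in sham mice and from 6.66 through 7.02 to 7.96 in smoke mice at 5 days. At 5 days 12 of 19 smoke mice were below every sham mouse, and 1 smoke mouse was the highest of both arms. The difference was -0.30 (SE 0.08, adjusted p = 0.00993 in limma), below 1.3-fold, and -0.13 at 1 day (adjusted p = 0.24). Ier3 (NM_133662, chromosome 17), also called IEX-1, is known for modulating apoptosis and ERK and NF-κB signalling. It ran from 9.43 through 9.86 to 10.15 in sham mice and from 9.54 through 10.03 to 10.45 in smoke mice at 1 day. At 5 days it ran from 9.49 through 9.70 to 9.95 in sham mice and from 9.40 through 9.99 to 10.38 in smoke mice. The smoke mice lay high, 18 of 19 above the sham median and 10 above every sham mouse at 5 days, with the lowest Ier3 of all mice also in the smoke arm. The Ier3 difference was 0.22 at 1 day (SE 0.06, adjusted p = 0.0134 in limma) and 0.28 at 5 days (SE 0.06, adjusted p = 0.000842 in limma), and it was positive in all 4 combinations of genotype and sex at both durations.

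**Figure D2:**
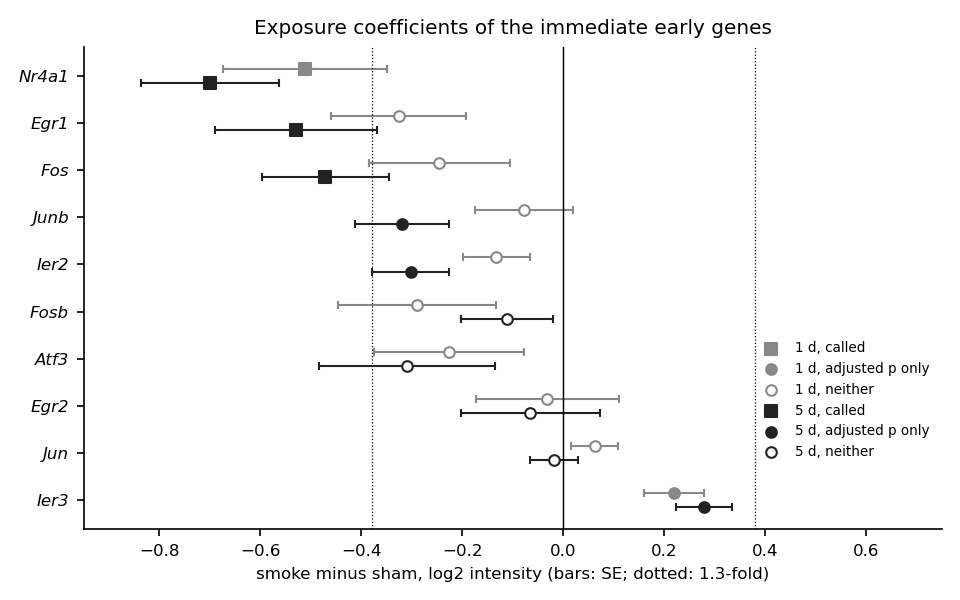
Smoke minus sham difference of each immediate early gene (log2, bars ± SE) at 1 day (grey) and 5 days (black), where squares were called, filled circles passed the adjusted p only, open circles passed neither, and dotted lines mark 1.3-fold. Nr4a1 lies furthest below 0 at both durations, at -0.51 and -0.70, and Ier3 lies above 0 at both.

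Over the 10 members, 8 differences were negative at 1 day and 9 at 5 days. Their medians were -0.18 and -0.31, beside medians over all rows of 0.01 and -0.00. Of all rows 55.7% were positive at 1 day and 48.9% at 5 days. Most members varied together across mice, as described below, so their signs are not independent. At 5 days 18 of 19 smoke mice were below the mean of their own sham group for Nr4a1, 18 for Fos, 18 for Ier2, 17 for Egr1 and 16 for Junb.

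The stretches just upstream of 3 of these genes are shown, picked by the direction of the smoke difference: Fos and Nr4a1 fell while Ier3 lay opposite. They are the 250 bases before the transcription start, from RefSeq on GRCm38.p6, all on the plus strand: chr12:85473640-85473889 for Fos, chr15:101266596-101266845 for Nr4a1 and chr17:35821463-35821712 for Ier3. Capitals mark TGACG, or CGTCA where it reads on the other strand, the core letters of the cyclic AMP response element that CREB proteins bind.
Fos: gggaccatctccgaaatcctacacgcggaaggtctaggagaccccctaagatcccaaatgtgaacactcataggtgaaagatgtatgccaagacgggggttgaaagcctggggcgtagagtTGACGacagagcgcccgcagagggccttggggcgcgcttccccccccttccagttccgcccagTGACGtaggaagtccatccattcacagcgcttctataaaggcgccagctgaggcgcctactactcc
Nr4a1: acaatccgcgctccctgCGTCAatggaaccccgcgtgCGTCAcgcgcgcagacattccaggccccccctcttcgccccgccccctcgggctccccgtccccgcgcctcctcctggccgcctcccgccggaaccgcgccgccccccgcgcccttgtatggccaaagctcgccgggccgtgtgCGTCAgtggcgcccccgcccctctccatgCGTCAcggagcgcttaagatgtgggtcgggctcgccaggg
Ier3: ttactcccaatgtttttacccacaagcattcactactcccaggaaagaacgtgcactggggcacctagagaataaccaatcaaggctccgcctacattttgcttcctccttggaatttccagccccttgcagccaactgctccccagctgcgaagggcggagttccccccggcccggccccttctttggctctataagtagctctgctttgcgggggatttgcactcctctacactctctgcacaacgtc
Fos held 2 matches, starting 129 and 66 bases before the start, and 1 TATAAA. Nr4a1 held 4 matches, starting 233, 213, 69 and 40 bases before the start, and Ier3 held none. Among 32851 promoters of the same length, 17.8% held the letters on either strand and 12.4% held TATAAA. For the other members in the table, Fosb, Junb and Atf3 held 1 match each, Jun none, and Egr2 0 or 2 depending on which of its 5 starts was read. None of the 8 members read held the full palindrome TGACGTCA (1.55% of promoters, of which TGACG is a part), the AP-1 site TGACTCA (4.46%) or the EGR site GCGTGGGCG (0.536%). Within the 250 bases read, the CArG box, the site of serum response factor, was found in 4 of the 5 entries of Egr2 and in 1.47% of promoters. Some of these Egr2 entries overlap, so they can hold the same site. Sites further upstream were not read for any member. The matches above are of letters only, and nothing about binding was measured. Fosb and Atf3, with 1 match each, did not pass with smoke. The 3 genes shown were picked by direction, and whether the letters bear on the smoke differences was not tested. The promoters of Egr1 and Ier2 were not read.

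The response to smoke was larger in size at 5 than at 1 day for Nr4a1, Egr1, Fos, Junb and Ier2, but the difference between durations was not detectable. None of the 10 exposure by duration terms passed, beside 0.612% of all rows at the adjusted p, and the smallest limma adjusted p among members was 0.603, for Ier2 at -0.18. The terms were -0.24 for Fos (SE 0.22, adjusted p = 0.771) and -0.20 for Nr4a1 (SE 0.22, adjusted p = 0.83). No member was called between the sham mice of the 2 durations, with a smallest adjusted p in limma of 0.673 and 0.00638% of all rows called. Smoke mice at 5 days minus smoke mice at 1 day gave a negative difference for all 10 members, none called beside 0.88% of rows. Of all rows 49.4% had a positive difference. Ier2 alone passed the adjusted p, at -0.25 (SE 0.08, adjusted p = 0.0455 in limma), beside 6.8% of rows without the fold threshold. In order of mean level Nr4a1 went from sham at 1 day (8.63 ± 0.64) through sham at 5 days (8.49 ± 0.45) and smoke at 1 day (8.12 ± 0.41) to smoke at 5 days (7.78 ± 0.49, SD, n = 19). No difference passed between the sham arms or between the smoke arms (adjusted p = 0.215 in limma).

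Genes of monocytes and red cells and glucocorticoid-responsive genes moved in the same samples. The neutrophil, B cell and T and NK cell markers that were also measured are not described here. Of 7 monocyte markers measured, 4 were lower with smoke at 1 day and 6 at 5 days. Their mean level per mouse, relative to all mice, ran from -0.16 to 0.51 in sham mice and from -0.89 to 0.26 in smoke mice at 5 days, and from -0.37 to 1.03 and from -0.43 to 0.25 at 1 day. All 3 red cell genes measured were higher at 5 days, where their mean ran from -1.80 to 0.95 in sham and from -0.47 to 1.85 in smoke mice. Of 7 glucocorticoid-responsive genes 4 were higher at 1 day and 3 at 5 days, with means of -0.65 to 0.49 in sham and -0.36 to 1.52 in smoke mice at 5 days. Of all rows 0.59% and 0.577% were called lower with smoke at 1 and 5 days, and 1.07% and 1.15% in either direction. The part of these marker genes in the differences of the immediate early genes was not tested. Without the 3 mice that carried muscle or thymus genes, the same 3 members were called lower at 5 days, with Nr4a1 at -0.71, Egr1 at -0.55 and Fos at -0.48, and Nr4a1 was called at 1 day at -0.52 (adjusted p = 0.047 in limma). Without the 13 mice whose source name disagrees with the title, Nr4a1 at 5 days was -0.86 and the only call. Fos was then at -0.57 (adjusted p = 0.149 in limma) and Egr1 at -0.57 (0.201), with 30 mice left and no WT smoke mouse among them.

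Of 87 related early genes measured in 6 lists, 6 were called with smoke at 1 day (5 higher, 1 lower) and 4 at 5 days (3 higher, 1 lower), beside 1.07% and 1.15% of all rows. Of 9 other AP-1, EGR and NR4A family genes measured (11 listed), 2 were called higher and 1 lower at 1 day: Fosl1, a Fos relative, by 0.57 (SE 0.14), Maff, a small Maf protein that pairs with NRF2, by 0.52 (SE 0.10), and Egr3 by -0.38 (SE 0.10). At 5 days Maff was called again, at 0.49 (SE 0.07), and no other. None of 13 other inducible transcription factors, 20 feedback inhibitors such as the dual specificity phosphatases, or 16 upstream kinases and factors was called at either duration. Of 15 secreted or surface products, Ptgs2, the inducible cyclooxygenase, was higher by 1.37 at 1 day and 0.64 at 5 days, and Edn1, the vasoconstrictor endothelin-1, by 0.55 and 0.56. Areg, an EGF receptor ligand, fell by 0.42 at 5 days. Of 14 stress and survival products only Cdkn1a, the cell cycle inhibitor p21, was called, at 0.48 at 1 day. All of these calls had a limma adjusted p below 0.05.

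With genotype, Egr2 and Atf3 were higher in βENaC mice at 5 days. Egr2 ran from 4.69 through 5.19 to 5.44 in WT and from 4.97 through 5.31 to 7.40 in βENaC mice at 1 day. At 5 days it ran from 4.66 through 4.99 to 5.35 in WT and from 4.62 through 5.46 to 7.03 in βENaC mice. WT mice lay in a narrow band and βENaC mice spread upward from it, with 8 of 20 above every WT mouse at 1 day and 11 of 19 at 5 days. Egr2 rose by 0.59 at 5 days (SE 0.14, adjusted p = 0.00322 in limma), or 1.504-fold, and the call held with any mouse left out (adjusted p 0.000736 to 0.00746). At 1 day it was 0.44 (SE 0.14, adjusted p = 0.0544 in limma).

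Atf3 ran from 5.81 through 6.31 to 7.26 in WT and from 6.05 through 6.76 to 8.62 in βENaC mice at 1 day. At 5 days it ran from 5.20 through 6.21 to 6.98 in WT and from 5.78 through 6.72 to 8.62 in βENaC mice. The genotypes overlapped, with 4 βENaC mice above every WT mouse at each duration. Atf3 rose by 0.53 at 5 days (SE 0.17, adjusted p = 0.0443 in limma) and was 0.47 higher at 1 day (SE 0.15, adjusted p = 0.0511). The 5-day call of Atf3 was lost in 22 of 39 fits that left out 1 mouse (differences of 0.41 to 0.58, adjusted p 0.0224 to 0.0806 over all such fits): βENaC sham females 1 and 3, βENaC sham males 2 and 3, βENaC smoke females 2 and 3, βENaC smoke males 2, 4 and 5, WT sham females 2, 5 and 6, WT sham males 2, 3, 4 and 5, WT smoke females 1, 2, 4 and 5, and WT smoke males 2 and 4. It was also lost without the 3 mice carrying muscle or thymus genes, at 0.52 (adjusted p = 0.0549 in limma), without the 13 mice of discordant source name (adjusted p = 0.272) and with an ordinary linear model (0.0584).

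Members called with genotype numbered 0 of 10 at 1 day and 2 of 10 at 5 days, beside 1.54% and 2.52% of all rows, and 1.87% called higher at 5 days. Without the fold threshold 1 and 4 passed, beside 5.87% and 10.2%. Jun was -0.21 at 1 day (SE 0.05, adjusted p = 0.00239 in limma) and -0.16 at 5 days (0.0254) in βENaC mice. Fosb, a row of low level, was -0.31 at 5 days (SE 0.09, adjusted p = 0.0247 in limma). Fos was -0.43 at 1 day (SE 0.14, adjusted p = 0.0617 in limma). The 1-day genotype differences lay close to the threshold: Fos became called in 7, Egr2 in 9 and Atf3 in 10 of the 40 fits that left out 1 mouse.

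Of 7 alveolar macrophage markers, Marco, Chil3 and Itgax were higher and Ear1 lower in βENaC mice at both durations, with Itgax at 0.85 and 1.21. The mean of the 7 ran from -0.25 to 0.05 in WT and from -0.23 to 0.73 in βENaC mice at 5 days, and from -0.69 to 0.03 and -0.38 to 0.67 at 1 day. Their part in Egr2 and Atf3 was not tested. Of the 87 related early genes, 7 were called with genotype at 1 day and 10 at 5 days, beside 1.54% and 2.52% of all rows. Among them Rgs1, Bhlhe40, Cxcl1, Il6, Edn1 and Plk3 were called higher with genotype at both durations and Ptgs2 lower, by -0.53 and -0.79. The effect of smoke did not detectably depend on genotype for any member. None of the exposure by genotype terms passed at 1 day (smallest adjusted p = 0.852 in limma, 0.00638% of rows called) or at 5 days (all at 1, 0% of rows).

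**Figure D3:**
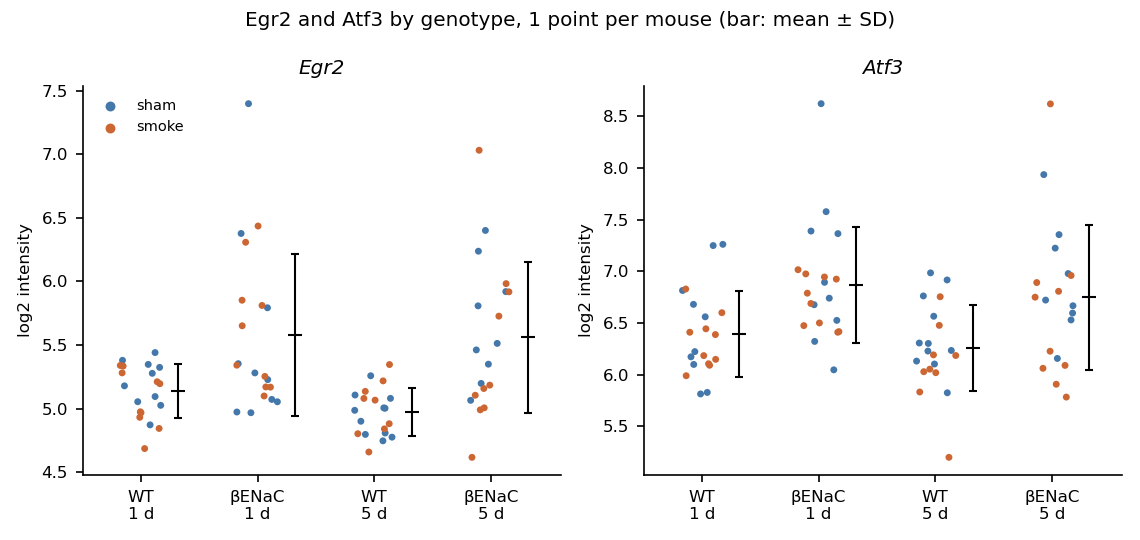
Log2 intensity of Egr2 and Atf3 in each mouse by genotype and duration (blue sham, orange smoke), with bars at the mean ± SD. WT mice lie in a narrow band for Egr2, 4.66 to 5.35 at 5 days, and βENaC mice reach 7.03.

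Fos was called higher in males than in females at 1 day, and no sex difference was called at 5 days. All 10 sex differences (male minus female) were positive at 1 day, beside 54.5% of all rows. Their median was 0.29 beside 0.01 over all rows. The Nr4a1 difference ran from -0.05 to 0.07 over the alternative fits. Fos was higher in males by 0.48 (SE 0.14, adjusted p = 0.0224 in limma), or 1.39-fold, and was the 1 member called, beside 0.836% of rows in either direction and 0.651% called higher in males. The Fos call held with any mouse left out (adjusted p 0.00903 to 0.0399), but not without the 13 mice of discordant source name, at 0.40 (adjusted p = 0.12 in limma). Junb (0.37, adjusted p = 0.00909), Ier3 (0.33, 0.000216), Ier2 (0.32, 0.00115) and Jun (0.24, 0.000498) passed limma's adjusted p below 1.3-fold, so that 5 passed without the fold threshold, beside 9.89% of rows. At 5 days no member was called, the smallest limma adjusted p was 0.567, and 0.198% of rows were called, or 0.616% without the fold threshold. The change of the sex effect from 1 to 5 days was not tested. The endothelial, alveolar epithelial and fibroblast lists leaned the same way in males at 1 day: 7 of 7, 7 of 7 and 4 of 6 differences were positive, with medians of 0.07, 0.09 and 0.08. Their part in the sex differences was not tested.

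For Fos, Egr1, Junb, Ier2 and Jun the male and female medians at 1 day lay furthest apart in the smoke mice. At 1 day Fos ran from 7.17 through 7.61 to 8.25 in sham females and from 5.95 through 7.04 to 7.56 in smoke females. It ran from 7.03 through 7.69 to 8.72 in sham males and from 7.23 through 7.93 to 8.51 in smoke males. Smoke females were low for Fos, while sham females, sham males and smoke males overlapped broadly. Ier2 ran from 6.72 through 7.07 to 7.28 in smoke females and from 7.44 through 7.56 to 7.73 in smoke males. Junb ran from 7.26 through 7.77 to 7.98 in smoke females and from 8.14 through 8.30 to 8.52 in smoke males. For Ier2 and Junb the smoke females and smoke males, 10 of each, did not overlap, whereas the sham sexes did, at 7.13 to 7.75 and 7.19 to 7.85 for Ier2. How many of all rows separate the smoke sexes in this way was not counted. The exposure by sex term at 1 day was 0.47 for Ier2 (SE 0.11, adjusted p = 0.33 in limma), the 13th lowest p of all rows. It was 0.74 for Fos, 0.61 for Egr1, 0.48 for Junb and 0.19 for Jun, so that 5 members had an unadjusted limma p below 0.05 and none an adjusted p below it (0.00638% of rows did). At 5 days all adjusted p were 1, with 0% of rows called.

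**Figure D4:**
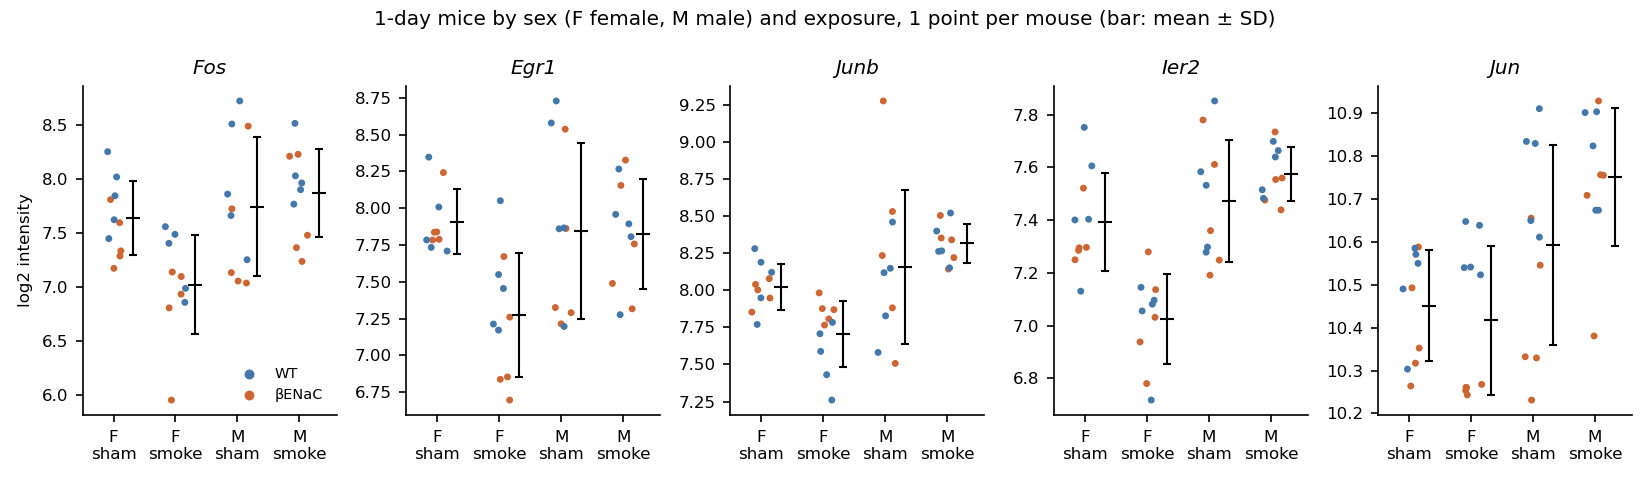
Log2 intensity of Fos, Egr1, Junb, Ier2 and Jun in the 1-day mice by sex and exposure (1 point per mouse, blue WT, orange βENaC, 10 mice a column). The smoke females have the lowest median in each panel, and for Junb and Ier2 they do not overlap the smoke males. How many of all rows separate in this way was not counted.

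Of the 10 members 9 varied more from mouse to mouse within a group than the median row, Jun being the exception. The SD within groups was 0.548 for Atf3, above 98.6% of all rows, 0.487 for Nr4a1 (98.0%), 0.470 for Egr1 (97.8%), 0.456 for Egr2 (97.6%), 0.431 for Fosb and 0.430 for Fos (both 97.1%). It was 0.307 for Junb (91.8%), 0.218 for Ier2 (75.9%), 0.188 for Ier3 (63.9%) and 0.142 for Jun (38.8%), beside a median of 0.160 over all rows.

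Mice that were high in Fos for their group were also high in Nr4a1 and Egr1. Over the 79 mice, each taken as its deviation from its own group, r with Fos was 0.829 for Nr4a1 (rho 0.807) and 0.819 for Egr1 (rho 0.839), with permutation p = 1e-05, the smallest that 100000 resamples give (1.8e-05 after adjustment over 9 genes). The value was 0.664 for Ier2, 0.636 for Junb and 0.601 for Fosb, with rho of 0.625, 0.649 and 0.520. Atf3 (r = 0.415, rho 0.437, adjusted permutation p = 0.0118) and Jun (0.394, 0.378, 0.0131) followed less closely. Egr2 (0.195, rho 0.238, adjusted permutation p = 0.29) and Ier3 (-0.114, rho -0.0593, permutation p = 0.447) did not detectably follow Fos. The 2 mice furthest from the Fos median, βENaC smoke female 2 at 5 days and βENaC sham male 3 at 1 day, were then left out. The r became 0.796 for Nr4a1, 0.784 for Egr1, 0.575 for Ier2, 0.583 for Junb, 0.499 for Fosb, 0.437 for Atf3, 0.266 for Jun, 0.281 for Egr2 and -0.193 for Ier3. Within the 40 sham mice r was 0.899 for Nr4a1 and 0.907 for Egr1, and within the 39 smoke mice 0.744 and 0.722.

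**Figure D5:**
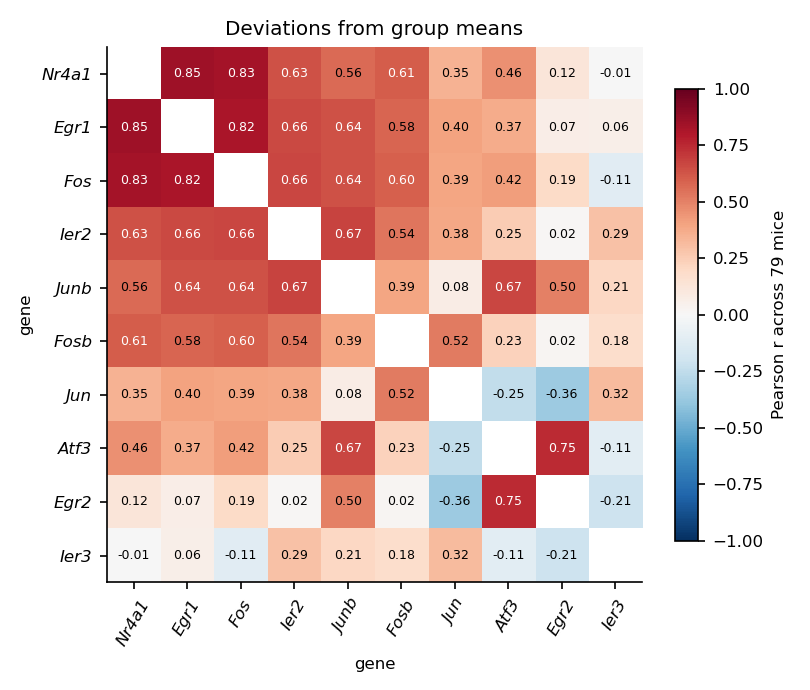
Pearson r between each pair of the 10 immediate early genes over 79 mice, each as its deviation from its group mean. The highest value is 0.851 (Nr4a1 with Egr1) and the lowest -0.364 (Egr2 with Jun), and Egr2 and Ier3 have r below 0.2 with Fos.

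Of the 45 pairs 39 were above 0, with a median r of 0.394. Another close pair was Atf3 with Egr2 (0.747), the members that rose with genotype, and Atf3 also went with Junb (0.669). Per the labels all arrays were run on the same plate, and these pair values are given as a description. Named genes outside the list were ranked by r with the mean deviation of the 10 members over the 79 mice. The highest were Ccn1 (also Cyr61, a matrix protein, r = 0.827), the inducible heat shock genes Hspa1b (0.752) and Hspa1a (0.749), Thbs1 (0.644) and Btg2 (0.611). With smoke, Ccn1 differed by -0.35 at 1 day (adjusted p = 0.0142 in limma) and -0.28 at 5 days (0.0759), whereas Hspa1b rose by 1.05 at 1 day (adjusted p = 0.00826) and was at -0.10 at 5 days (0.905).

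The mean deviation of the 10 members from their group was highest in βENaC smoke female 2 at 5 days (0.62), βENaC sham male 3 at 1 day (0.61) and WT sham male 2 at 1 day (0.50), and lowest in WT sham male 5 at 1 day (-0.47). The first of these is the smoke mouse that topped both arms for Ier2. Without it the 5-day differences were larger in size: -0.76 for Nr4a1 (adjusted p = 8.66e-05 in limma), -0.60 for Egr1 (0.00848), -0.54 for Fos (0.001) and -0.35 for Ier2 (3.16e-05). This smoke mouse was picked because these members were high in it, so larger falls and smaller p-values were built into the choice.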

How the data were processed

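Whole lung RNA of 79 mice was measured on 1 array each, and the authors deposited log2 intensities per transcript row. Per the labels and the study's methods these were made with RMA (Affymetrix Expression Console 1.4 and Partek 6.6) with quantile normalization and median polish per gene, and 1 array was removed as mislabelled. The values, from 1.98 to 13.41, were used as deposited and 0 columns were left out. There are no counts behind an array value; precision is limited by the number of arrays, and signal over background was not examined. Symbols came from the study's gene tables for 2537 rows and otherwise from RefSeq, and 21837 rows had one. The row of Fos is an Ensembl transcript named there. Groups came from titles.

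Each duration was fitted with limma 3.58.1 in R 4.3.3 on genotype, exposure and sex, with interactions and duration terms added in further fits and Benjamini-Hochberg adjustment over 31350 rows. Calls needed an adjusted p below 0.05 and 1.3-fold, and interaction and exposure by duration terms the adjusted p alone. Correlations used two-sided permutation tests with 100000 resamples. The fits were tested on simulated data. Alternatives were other tests, normalizations, filters, thresholds, a replicate block, a fit over all mice and leaving out mice. Same-numbered smoke and sham mice of a genotype, sex and duration deviated together little (mean r 0.016 over 38 pairs, 10 of them over 0.1). Differently numbered mice gave a mean r of -0.003 over 157 pairs, 26 of them over 0.1. The numbers were not used to pair mice. Members and lists were chosen with earlier results of these data known. Named genes outside the members were called genes of the listed groups, or those most correlated with the mean deviation of the 10 members. Of the lists, Nr4a2, Nr4a3, Myc, Dusp5 and Cxcl2 and a few others had no matched row. Replicates are separate mice. Data were read with the data.table package (version 1.17.8) and drawn in Python 3.11.15 with matplotlib 3.10.9.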

Additional observations from a re-analysis of the deposited data

Results flagged for a closer look

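In 160 groups of 4 to 6 mice, 1 for each member and group, 12 had a mouse whose gap to the nearest other was large for the range of its group (Dixon's 95% critical value). Chance flags about 1 in 20 groups, or 8 of the 160, and the 12 fell on 10 mice.

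Lows and highs among the smoke mice were the following. Fos was 5.95 in βENaC smoke female 2 at 1 day, against 6.81 to 7.14 in the other mice of its group, and Ier3 was 10.41 in the same mouse against 9.70 to 9.88. This mouse also carried the thymus genes. In βENaC smoke female 2 at 5 days Fosb was 5.10 against 3.90 to 4.05 and Egr1 was 8.62 against 7.02 to 7.45. Egr2 was 7.03 in βENaC smoke female 3 at 5 days against 4.62 to 5.16. Ier2 was 6.72 in WT smoke female 2 at 1 day against 7.06 to 7.15.

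Among sham mice, Fosb was 6.99 in βENaC male 3 at 1 day against 4.12 to 4.48, the largest gap of the 12 in log2 units. Egr1 was 8.24 in βENaC female 1 at 1 day against 7.78 to 7.84, Ier2 was 7.52 in βENaC female 4 at 1 day against 7.25 to 7.30, and Ier3 was 9.58 in βENaC male 2 at 1 day against 9.93 to 10.06. At 5 days Jun was 10.67 in WT male 2 against 10.56 to 10.59, and Ier3 was 9.95 in WT male 1 against 9.71 to 9.78. The cause of these values was not tested.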

How the results depend on the processing

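No called difference of a member changed sign under any alternative run, but some uncalled differences near 0 did. Over the alternatives Egr2 with exposure at 1 day ran from -0.03 to 0.01. Jun with exposure at 5 days ran from -0.03 to 0.003, and Nr4a1 with sex at 1 day from -0.05 to 0.07. The counts of members called (1 with exposure, 0 with genotype and 1 with sex at 1 day; 3 with exposure, 2 with genotype and 0 with sex at 5 days) moved as follows, and the cause was not tested except that thresholds and samples change by construction. With an ordinary linear model exposure gave 0 at 1 day and 2 at 5 days (Egr1 lost), and genotype at 5 days gave 1. Genotype at 5 days also gave 1 with a trend and robust prior, with array weights, without the 13 mice of discordant source name and without the 3 mice carrying muscle or thymus genes, both chosen after seeing the data. Genotype at 1 day gave 2 with array weights, 1 with quantile normalization, 3 without the 30% of rows with the lowest mean, 2 in 1 fit over all mice and 1 without the 13 mice. Sex at 1 day gave 2 in 1 fit over all mice, 0 without the 13 mice (Fos 0.40, limma adjusted p = 0.12) and 2 without the 3. Exposure without the 13 gave 0 at 1 day (Nr4a1 -0.44, limma adjusted p = 0.147) and 1 at 5 days. With no fold threshold exposure gave 2 and 6, genotype 1 and 4, sex at 1 day 5 and smoke at 5 days minus smoke at 1 day 1. At 1.5-fold exposure gave 0 and 1, sex at 1 day 0 and genotype at 5 days 1. With the replicate number as a block, genotype at 1 day gave 2, and the exposure and sex counts and genotype at 5 days stayed at 1, 3, 1 and 2. Leaving out 1 mouse gave 0 to 1 for exposure, 0 to 3 for genotype and 1 to 2 for sex at 1 day, and 2 to 3 and 1 to 2 for exposure and genotype at 5 days, and 0 for all other results. Scaling shifted the median of all rows by at most 0.037. Members have 1 row each, so the alternative of other rows was not run.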
